A study of Caenorhabditis elegans with 8 samples.

Results

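The mitochondrial genome of *C. elegans* encodes subunits of the respiratory chain, and the 10 genes described here are those for NADH dehydrogenase (complex I) and cytochrome c oxidase (complex IV). They were chosen by sequence name, but with earlier results of these data known. They are 7 complex I genes (*nduo-1*, *nduo-2*, *nduo-3*, *nduo-4*, *ndfl-4*, *nduo-5* and *nduo-6*) and 3 complex IV genes (*ctc-1*, *ctc-2* and *ctc-3*). The deposited tables hold 46449 distinct gene names, of which 36 belong to the mitochondrial genome and 12 of those code for proteins. The other two of the protein-coding genes, *ctb-1* (MTCE.21) and *atp-6* (MTCE.12), encode cytochrome b of complex III and a subunit of the ATP synthase.

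The libraries are poly(A)-selected mRNA-seq libraries from whole hermaphrodites at the fourth larval stage (L4), with 2 biological replicates in each of 4 groups. The groups are *mut-16(pk710)* mutants and wild-type (N2) animals, each grown at 25ºC and at 20ºC. MUT-16 is the scaffold of the *Mutator* foci, where germline small interfering RNAs are amplified, and the study asked how mRNA levels respond to raised temperature, to loss of *mut-16* and to both. Animals were collected after about 39 h at 25ºC and about 56 h at 20ºC, so temperature and time in culture cannot be told apart. RNA came from whole animals, so fewer mitochondria-rich cells and less of a transcript per cell cannot be told apart either. The p-values set differences between groups against the spread between these libraries, estimated jointly over the 4 groups.

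Complex I takes electrons from NADH and complex IV passes electrons to oxygen, and both pump protons across the inner mitochondrial membrane. Each is built from a core encoded in mitochondrial DNA (mtDNA) and a larger set of subunits encoded in the nucleus, imported and assembled around it. In *C. elegans* all mtDNA genes lie on the same strand and are cut out of long transcripts, so the levels of separate mRNAs depend on their processing, polyadenylation and stability as well as on transcription. Mitochondrial DNA multiplies steeply in *C. elegans* at the L4 stage and in the adult germline, which is the tissue of most interest in *mut-16* mutants.

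In the WBcel235 annotation each of the 10 genes is a single exon on the + strand of MtDNA. In order along the molecule, *nduo-6* (MTCE.3) spans 113 to 549, *ndfl-4* (MTCE.4) 549 to 783, *nduo-1* (MTCE.11) 1763 to 2635, *nduo-2* (MTCE.16) 3389 to 4269 and *ctc-3* (MTCE.23) 5678 to 6449. They are followed by *nduo-4* (MTCE.25) from 6506 to 7808, *ctc-1* (MTCE.26) from 7827 to 9428, *ctc-2* (MTCE.31) from 9649 to 10348, *nduo-3* (MTCE.34) from 11356 to 11691 and *nduo-5* (MTCE.35) from 11691 to 13272. The genes *nduo-6* and *ndfl-4* share base 549, *nduo-3* and *nduo-5* share base 11691, and the end of *nduo-1* overlaps the start of *atp-6*, so a read across such a junction can belong to either neighbour. All 36 mitochondrial names lie on the + strand. The 22 tRNA genes and the 2 ribosomal RNA genes (MTCE.7 and MTCE.33) are listed at 0 counts in all 8 libraries.

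Library totals lay between 9914054 and 13227929 expected counts. The *mut-16* transcript itself stood at 5.47 to 7.82 CPM (counts scaled by TMM-normalized library size) in *mut-16* libraries and 22.6 to 26.2 CPM in wild-type libraries, so the libraries of both genotypes did not overlap. Markers of other tissues moved with the groups. The summed level of the major sperm protein genes was 443 to 461 CPM in *mut-16* at 25ºC, 706 to 958 CPM in *mut-16* at 20ºC, 2205 to 2583 CPM in wild-type at 25ºC and 1318 to 1956 CPM in wild-type at 20ºC. Body-wall muscle genes summed to 11150 and 11290 CPM in *mut-16* at 25ºC and 12230 and 12920 CPM in *mut-16* at 20ºC. In wild-type they summed to 11980 and 11570 CPM at 25ºC and 10360 and 10120 CPM at 20ºC, the lowest of the groups. Over all libraries neuron genes summed to between 393 and 441 CPM, and germline P granule genes to between 250.1 and 430.1 CPM. No marker in these lists was at 0 over a whole library, and nuclear rRNA took 9.83% to 14.3% of the counts.

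Together the 10 genes took between 1.11% and 1.67% of the counts in a library. The share was 1.11% and 1.19% in *mut-16* at 25ºC, 1.39% and 1.11% in *mut-16* at 20ºC, 1.12% and 1.17% in wild-type at 25ºC, and 1.67% and 1.58% in wild-type at 20ºC. Both wild-type libraries at 20ºC thus lay above the other 6 libraries, and the remaining groups overlapped. The summed CPM had the same order at its top, with a mean of 11480 ± 403 in *mut-16* at 25ºC, 11880 ± 2482 in *mut-16* at 20ºC, 12860 ± 269 in wild-type at 25ºC and 15340 ± 262 in wild-type at 20ºC (SD, n = 2 each).

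**Figure D1:**
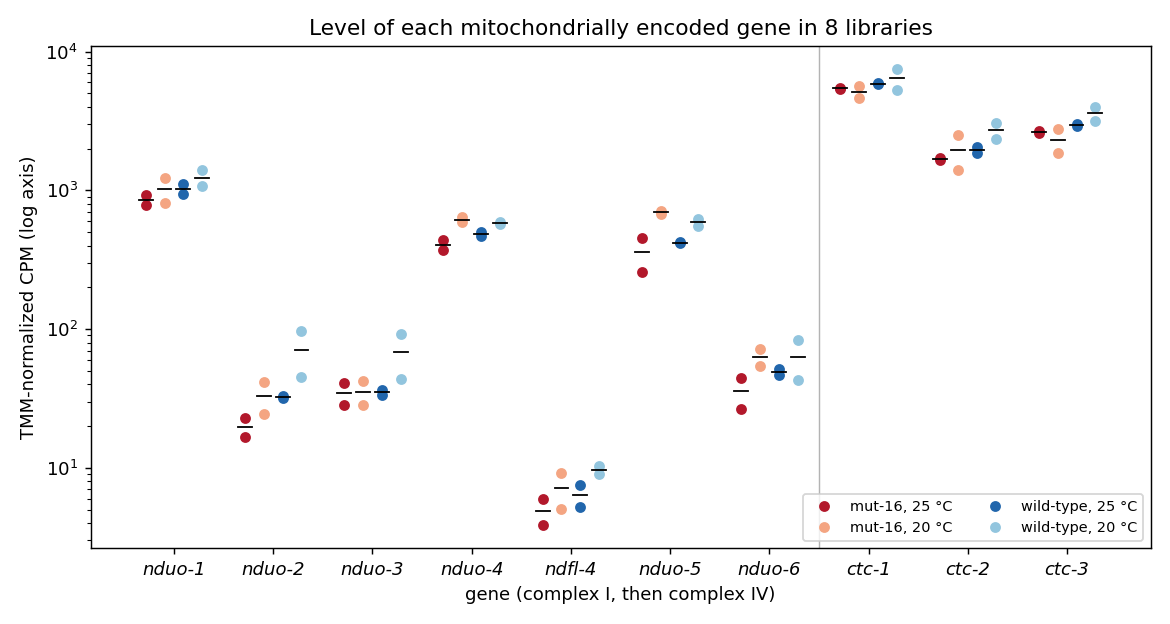
Level of each of the 10 genes in each library, as TMM-normalized CPM on a log axis; points are libraries, coloured by group, and short lines are the means of 2 libraries. CPM is not scaled to gene length, so heights are to be compared within a gene; *nduo-2* and *nduo-3* each have 1 wild-type library at 20ºC (96.4 and 92.2 CPM) above the other 7.

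CPM values are not scaled to gene length and are read here across libraries for a single gene, beginning with complex IV. *ctc-1*, the catalytic subunit with the haem and copper site where oxygen is reduced, had 5402 and 5475 CPM in *mut-16* at 25ºC, 5668 and 4654 CPM in *mut-16* at 20ºC, 5808 and 5952 CPM in wild-type at 25ºC, and 7527 and 5325 CPM in wild-type at 20ºC. Its highest library exceeded its lowest by 1.62-fold, the smallest such range among the 10 genes. *ctc-2*, which accepts electrons from cytochrome c, ranged over 2.17-fold, and *ctc-3*, the remaining core subunit, over 2.16-fold.

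Complex I genes were read in the same way. *nduo-1*, part of the membrane arm where ubiquinone binds, had 783 and 924 CPM in *mut-16* at 25ºC, 1222 and 815 CPM in *mut-16* at 20ºC, 1106 and 944 CPM in wild-type at 25ºC, and 1069 and 1396 CPM in wild-type at 20ºC. *ndfl-4*, the worm ND4L, had 3.85 and 5.96 CPM in *mut-16* at 25ºC, 9.24 and 5.02 CPM in *mut-16* at 20ºC, 7.53 and 5.21 CPM in wild-type at 25ºC, and 9.03 and 10.3 CPM in wild-type at 20ºC. Its values rest on 47 to 118 counts a library, and those of *ctc-1* on 54749 to 98374, so *ndfl-4* carries the widest counting error.

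To set genes against each other, levels were divided by annotated length. In wild-type at 20ºC the levels per kilobase were 4644 ± 763 for *ctc-3*, 4011 ± 972 for *ctc-1* and 3869 ± 707 for *ctc-2*, in CPM per kilobase (SD, n = 2). These 3 levels did not differ beyond their spread. *nduo-1* followed with 1412 ± 265 CPM per kilobase, apart from the complex IV genes and from the rest of complex I. Then came *nduo-4* with 446 ± 12.1 and *nduo-5* with 373 ± 32.1 CPM per kilobase, both antiporter-like subunits of the membrane arm.

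The lowest levels per kilobase belonged to 4 other complex I genes. In wild-type at 20ºC *nduo-3* had 203 ± 102, *nduo-6* 144 ± 64.9, *nduo-2* 80.4 ± 41.0 and *ndfl-4* 41.1 ± 3.83 CPM per kilobase (SD, n = 2), and neighbours in this order overlapped in their spread. The order was nearly the same in the other groups. *nduo-1*, *nduo-4* and *nduo-5* held ranks 4, 5 and 6 in all 4 groups, *nduo-2* rank 9 and *ndfl-4* rank 10, while *ctc-1* and *ctc-3* exchanged the first rank in *mut-16* at 20ºC. *nduo-3* and *nduo-6* exchanged ranks 7 and 8 between groups. When 74 bases were taken off each length, to count only the places where a read can start, *ndfl-4* came before *nduo-2* in both *mut-16* groups.

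The 2 replicates of a group differed more for some of these genes than for others. In wild-type at 20ºC replicate 2 was 2.13-fold above replicate 1 for *nduo-2* and 2.10-fold above it for *nduo-3*, whereas *nduo-6* was 1.94-fold and *ctc-1* 1.41-fold higher in replicate 1. The replicates of wild-type at 25ºC were close, with *nduo-5* at 421 and 419 CPM. In *mut-16* at 25ºC replicate 2 was higher by 1.75-fold for *nduo-5* and 1.69-fold for *nduo-6*. In *mut-16* at 20ºC replicate 1 was higher for 9 of the 10 genes, by 1.77-fold for *ctc-2* and 1.50-fold for *ctc-3*. Over the 8 libraries the range was widest for *nduo-2*, at 5.80-fold, followed by *nduo-3* with 3.28-fold and *nduo-6* with 3.13-fold.

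The first comparison asked what growth at 25ºC did in *mut-16* mutants. Groups were tested with edgeR's quasi-likelihood test over 13972 genes, with a call at 0.05 or less after Benjamini-Hochberg adjustment. Of the 10 genes, 2 fell and 0 rose in *mut-16* at 25ºC, both of complex I. Of all genes tested, 4.47% were called lower and 7.71% higher. The median log2 fold change was −0.38 over the 10 genes and 0.00 over all genes.

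*nduo-5* fell in *mut-16* at 25ºC. It had 260.0 and 455 CPM in *mut-16* at 25ºC, against 681 and 707 CPM in *mut-16* at 20ºC. Both libraries at 25ºC lay below both at 20ºC, and the lower one stood well apart from its replicate. The log2 fold change was −0.96 ± 0.20 (SE), with an adjusted p of 0.0056 by edgeR's quasi-likelihood test. Without replicate 1 of *mut-16* at 25ºC it was −0.62 with an adjusted p of 0.098, so this call rests on that library.

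*nduo-4* fell as well. Its levels were 372 and 442 CPM in *mut-16* at 25ºC and 640 and 588 CPM in *mut-16* at 20ºC, with no overlap. The log2 fold change was −0.59 ± 0.13 (SE), with an adjusted p of 0.0080 by edgeR's quasi-likelihood test. It too was lost without replicate 1 of *mut-16* at 25ºC, at −0.49 with an adjusted p of 0.22. DESeq2 called 2 of the 10 genes lower and 0 higher in this comparison.

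Of the remaining genes, *nduo-6* had 26.5 and 44.8 CPM in *mut-16* at 25ºC and 72.0 and 54.5 CPM in *mut-16* at 20ºC, which did not overlap. Its log2 fold change was −0.82 ± 0.28 (SE), with an adjusted p of 0.073 by edgeR's test. *nduo-6* passed that test with scaling by total counts (adjusted p of 0.048) and with no filter (1.8e-05), but not DESeq2 (0.23). *nduo-2* had a log2 fold change of −0.73 ± 0.31 (SE), with an adjusted p of 0.15 by edgeR's test. It passed that test with no filter (adjusted p of 4.9e-04), but not DESeq2 (0.37). In all, 4 of the 10 genes had both libraries at 25ºC below both at 20ºC, where 28.0% of all genes did. The complex IV genes lay on either side of 0, with log2 fold changes of 0.08 for *ctc-1*, −0.21 for *ctc-2* and 0.19 for *ctc-3*, none of which passed the test.

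Temperature in wild-type animals was compared next. Here 2 of the 10 genes fell and 0 rose, again of complex I, and 9.62% of all genes were called lower and 11.1% higher. All 10 log2 fold changes were negative, with a median of −0.41, beside −0.00 over all genes. In 7 of the 10 genes both libraries at 25ºC lay below both at 20ºC, against 28.2% of all genes. DESeq2 called 0 of the 10 genes in either direction.

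The subunit gene *nduo-2*, another antiporter-like part of the membrane arm, had 33.1 and 31.8 CPM in wild-type at 25ºC, against 45.2 and 96.4 CPM in wild-type at 20ºC. The groups did not overlap, but the 20ºC libraries were far apart. It fell by 1.12 on the log2 scale (SE 0.30), with an adjusted p of 0.018 by edgeR's quasi-likelihood test, and was the only one of the 10 genes beyond a log2 fold change of −1 here, where 4.19% of all genes were called and beyond it. Without replicate 2 of wild-type at 20ºC the log2 fold change was −0.48, with an adjusted p of 0.21. The call was also lost without either replicate of wild-type at 25ºC, at −1.15 and −1.09, and by DESeq2, with an adjusted p of 0.087.

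*nduo-3*, a small subunit near the junction of the membrane and peripheral arms, had 36.6 and 33.4 CPM in wild-type at 25ºC, against 43.9 and 92.2 CPM in wild-type at 20ºC. As for *nduo-2*, replicate 2 at 20ºC stood far above the other wild-type libraries. The log2 fold change was −0.96 ± 0.29 (SE), with an adjusted p of 0.031 by edgeR's quasi-likelihood test. It was −0.33 with an adjusted p of 0.38 without replicate 2 of wild-type at 20ºC. The call was lost also without either replicate at 25ºC, at −1.03 and −0.89, and by DESeq2, with an adjusted p of 0.14.

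*nduo-5* had 421 and 419 CPM in wild-type at 25ºC, against 627 and 555 CPM in wild-type at 20ºC. These did not overlap, and the log2 fold change of −0.49 ± 0.20 (SE) missed the threshold with an adjusted p of 0.097. *nduo-4* had 501 and 468 CPM in wild-type at 25ºC and 592 and 570 CPM in wild-type at 20ºC, a log2 fold change of −0.26 with an adjusted p of 0.18. *ctc-2* had 2047 and 1873 CPM in wild-type at 25ºC and 2358 and 3059 CPM in wild-type at 20ºC, a log2 fold change of −0.47 with an adjusted p of 0.14. Scaling by total counts instead of TMM moved the median of all genes by −0.25 in this comparison and called 8 of the 10 genes lower, with 2787 of all 13972 genes called lower, against 1344 with TMM.

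**Figure D2:**
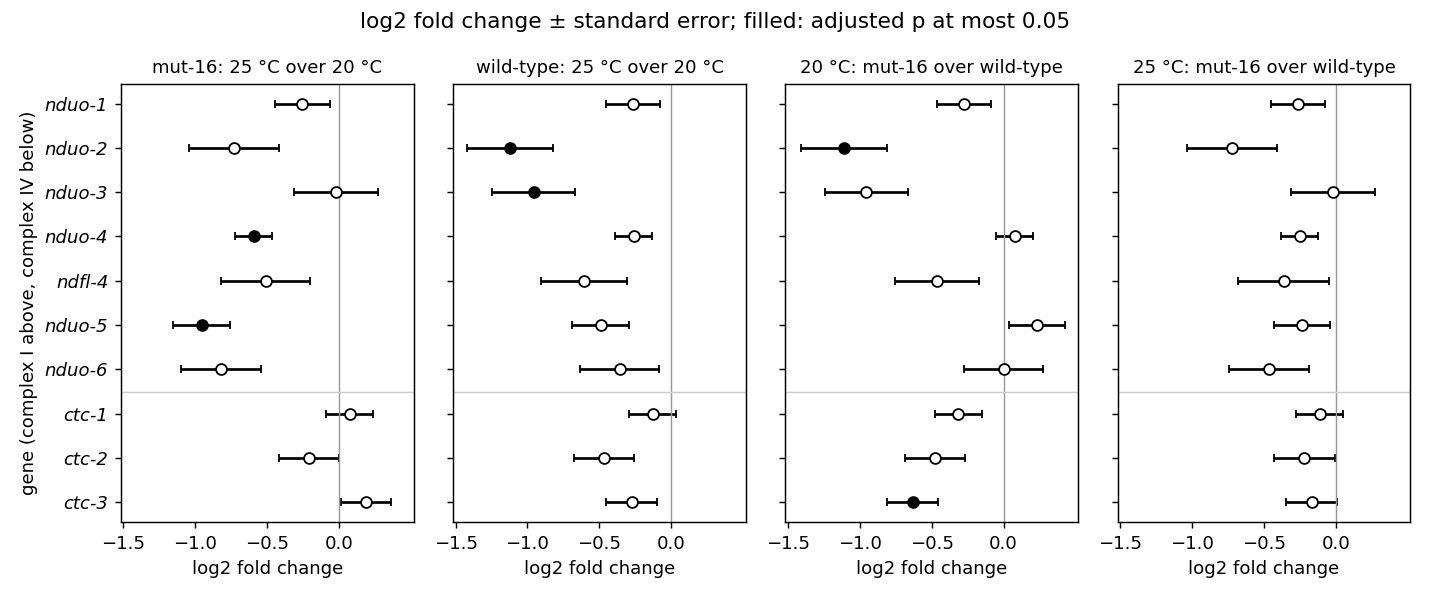
Log2 fold change of each gene in the 4 comparisons, with bars for the standard error; filled points passed edgeR's test at an adjusted p of at most 0.05. The filled points are *nduo-4* and *nduo-5* for temperature in *mut-16*, *nduo-2* and *nduo-3* for temperature in wild-type, and *nduo-2* and *ctc-3* for the mutation at 20ºC.

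Loss of *mut-16* was compared with wild-type at each temperature. At 20ºC, 2 of the 10 genes fell and 0 rose in *mut-16*, with 5.75% of all genes called lower and 2.68% higher. The median log2 fold change was −0.39 over the 10 genes and −0.05 over all genes. Since wild-type at 20ºC also served as the baseline of the temperature comparison in wild-type, the same 2 libraries enter both. In 3 of the 10 genes both *mut-16* libraries lay below both wild-type libraries, against 27.4% of all genes, and in *nduo-5* both lay above, against 19.2% of all genes.

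*nduo-2* had 41.5 and 24.4 CPM in *mut-16* at 20ºC, against 45.2 and 96.4 CPM in wild-type at 20ºC. Replicate 1 of *mut-16* lay just under replicate 1 of wild-type, and the groups did not overlap. The gene fell by 1.11 on the log2 scale (SE 0.30), with an adjusted p of 0.036 by edgeR's quasi-likelihood test. It was the only one of the 10 called beyond a log2 fold change of −1, where 3.03% of all genes were. Without replicate 2 of wild-type at 20ºC the log2 fold change was −0.43, with an adjusted p of 0.36, and without replicate 2 of *mut-16* at 20ºC it was −0.71, with an adjusted p of 0.35. The call was lost, with little change in the fold, by DESeq2 (−1.07, adjusted p of 0.19) and without either wild-type library at 25ºC (−1.11 each, adjusted p of 0.055 and 0.056).

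In complex IV, *ctc-3* fell in *mut-16* at 20ºC. It had 2781 and 1851 CPM in *mut-16* and 3168 and 4002 CPM in wild-type, with no overlap. The log2 fold change was −0.63 ± 0.18 (SE), with an adjusted p of 0.043 by edgeR's quasi-likelihood test, close to the threshold. Leaving out replicate 2 of *mut-16* at 20ºC gave −0.31 with an adjusted p of 0.34, and leaving out replicate 2 of wild-type at 20ºC gave −0.41 with an adjusted p of 0.29. The call was lost also without any 1 of the 4 libraries grown at 25ºC, which do not enter the fold, at −0.63 to −0.58 with adjusted p between 0.066 and 0.12. RLE scaling ended it too, at −0.60 with an adjusted p of 0.058. It was kept by DESeq2, at −0.60 with an adjusted p of 0.019. With scaling by total counts it was also kept by edgeR's test, at −0.64 with an adjusted p of 0.014.

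*nduo-3* had 42.3 and 28.2 CPM in *mut-16* at 20ºC and 43.9 and 92.2 CPM in wild-type at 20ºC. Its log2 fold change of −0.95 ± 0.29 (SE) missed the threshold, with an adjusted p of 0.058, and DESeq2 gave an adjusted p of 0.27. Without replicate 2 of wild-type at 20ºC the log2 fold change was −0.29, with an adjusted p of 0.55. *nduo-5* had 681 and 707 CPM in *mut-16* at 20ºC and 627 and 555 CPM in wild-type at 20ºC, a log2 fold change of 0.23 with an adjusted p of 0.52. *nduo-4* and *nduo-6* had log2 fold changes of 0.08 and 0.00, although that of *nduo-6* was −0.01 with scaling by total counts. DESeq2 called 1 of the 10 genes lower, *ctc-3*, and 0 higher.

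At 25ºC, 0 of the 10 genes passed edgeR's test in either direction between *mut-16* and wild-type, where 12.5% of all genes were called lower and 7.68% higher. At an unadjusted p of at most 0.05 the test gave 1 lower gene and 0 higher, where 32.4% of all genes passed in either direction, and DESeq2 called 0. All 10 log2 fold changes were negative, from −0.72 for *nduo-2* to −0.02 for *nduo-3*, with a median of −0.24 beside 0.00 over all genes, although scaling by total counts turned *nduo-3*, *ctc-1* and *ctc-3* slightly positive. *nduo-2* had 16.6 and 22.7 CPM in *mut-16* at 25ºC, against 33.1 and 31.8 CPM in wild-type at 25ºC, with an adjusted p of 0.13. In TMM-normalized CPM, both *mut-16* libraries lay below both wild-type libraries in 7 of the 10 genes, against 33.9% of all genes. The TMM factors were 0.997 and 1.02 in *mut-16* at 25ºC and 0.858 and 0.924 in wild-type at 25ºC. Without these factors, the summed shares of the 10 genes overlapped, at 1.11% and 1.19% in *mut-16* and 1.12% and 1.17% in wild-type. These shares are mostly counts of the complex IV genes. The count of 7 was not repeated without TMM factors, so its dependence on the scaling was not tested. The median of the 10 genes was nearly the same with RLE scaling, nuclear non-rRNA scaling and DESeq2. It was a smaller fall with total count scaling, which moved the median of all genes to 0.18. With 0 of the 10 genes called, a deficit in *mut-16* was not shown.

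Whether the response to temperature differed between the genotypes was tested as an interaction. It was called for 0 of the 10 genes in either direction by edgeR's test, where 1.5% of all genes were called lower and 1.59% higher. By an unadjusted p of at most 0.05 the count was 1 higher and 0 lower, where 19.5% of all genes passed in either direction, and DESeq2 called 0. The gene in question was *nduo-3*, whose log2 fold change with temperature was −0.02 in *mut-16* and −0.96 in wild-type. The difference was 0.93 ± 0.41 (SE) on the log2 scale, with an adjusted p of 0.23, and rested on the wild-type libraries at 20ºC. It was 1.34 with an adjusted p of 0.012 without replicate 1 of that group, and 0.30 with an adjusted p of 0.63 without replicate 2. *nduo-5* and *nduo-6*, with differences of −0.46 each, did not pass either.

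**Figure D3:**
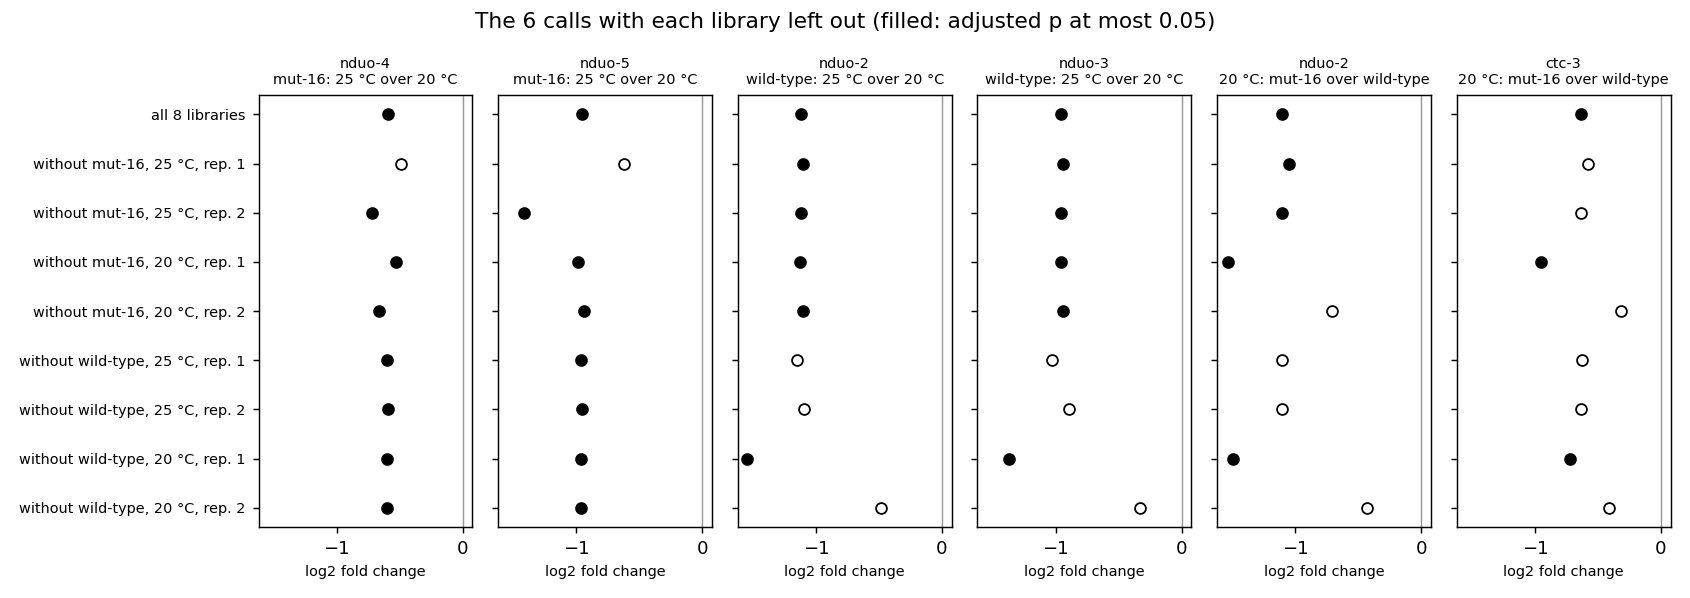
Log2 fold change of the 6 called results with all 8 libraries and with each library left out in turn; filled points have an adjusted p of at most 0.05. *nduo-4* and *nduo-5* lose their calls without replicate 1 of *mut-16* at 25ºC only, and the calls on *nduo-2*, *nduo-3* and *ctc-3* move nearest to 0 without replicate 2 of wild-type at 20ºC or of *mut-16* at 20ºC.

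The balance within mtDNA does not depend on how libraries are scaled. The ratio of complex IV to complex I counts was 6.51 and 5.08 in *mut-16* at 25ºC, 4.04 and 3.56 in *mut-16* at 20ºC, 5.05 and 5.50 in wild-type at 25ºC, and 5.29 and 4.48 in wild-type at 20ºC. Both *mut-16* libraries at 20ºC had the lowest ratios of the 8, and the wild-type groups overlapped. The means were 5.79 ± 1.01, 3.80 ± 0.337, 5.28 ± 0.321 and 4.88 ± 0.567 in the same order of groups (SD, n = 2 each).

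Of the complex I genes, *nduo-4* and *nduo-5* took a larger share in *mut-16* at 20ºC than in any other group. *nduo-4* made up 3.33% and 3.76% of the counts of the 10 genes in *mut-16* at 25ºC, 4.69% and 5.80% in *mut-16* at 20ºC, 3.84% and 3.70% in wild-type at 25ºC, and 3.82% and 3.76% in wild-type at 20ºC. Only the *mut-16* libraries at 20ºC stood above the rest of the 8. *nduo-5* made up 2.32% and 3.87% in *mut-16* at 25ºC, 4.99% and 6.97% in *mut-16* at 20ºC, 3.23% and 3.31% in wild-type at 25ºC, and 4.04% and 3.66% in wild-type at 20ºC. Here again the *mut-16* libraries at 20ºC were the highest of the 8.

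Replicate 2 of wild-type at 20ºC had a composition of its own. *nduo-2* made up 0.636% of the counts of the 10 genes in it, and 0.148% to 0.304% in the other 7 libraries. *ctc-1* made up 35.2% in it, and 41.5% to 48.5% in the others. *nduo-6* was at 0.283% in it and 0.535% in its replicate, but was lower still, at 0.237%, in replicate 1 of *mut-16* at 25ºC. Without replicate 2 of wild-type at 20ºC the temperature calls on *nduo-2* and *nduo-3* in wild-type are lost. The *mut-16* calls on *nduo-2* and *ctc-3* at 20ºC are lost without it as well.

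**Figure D4:**
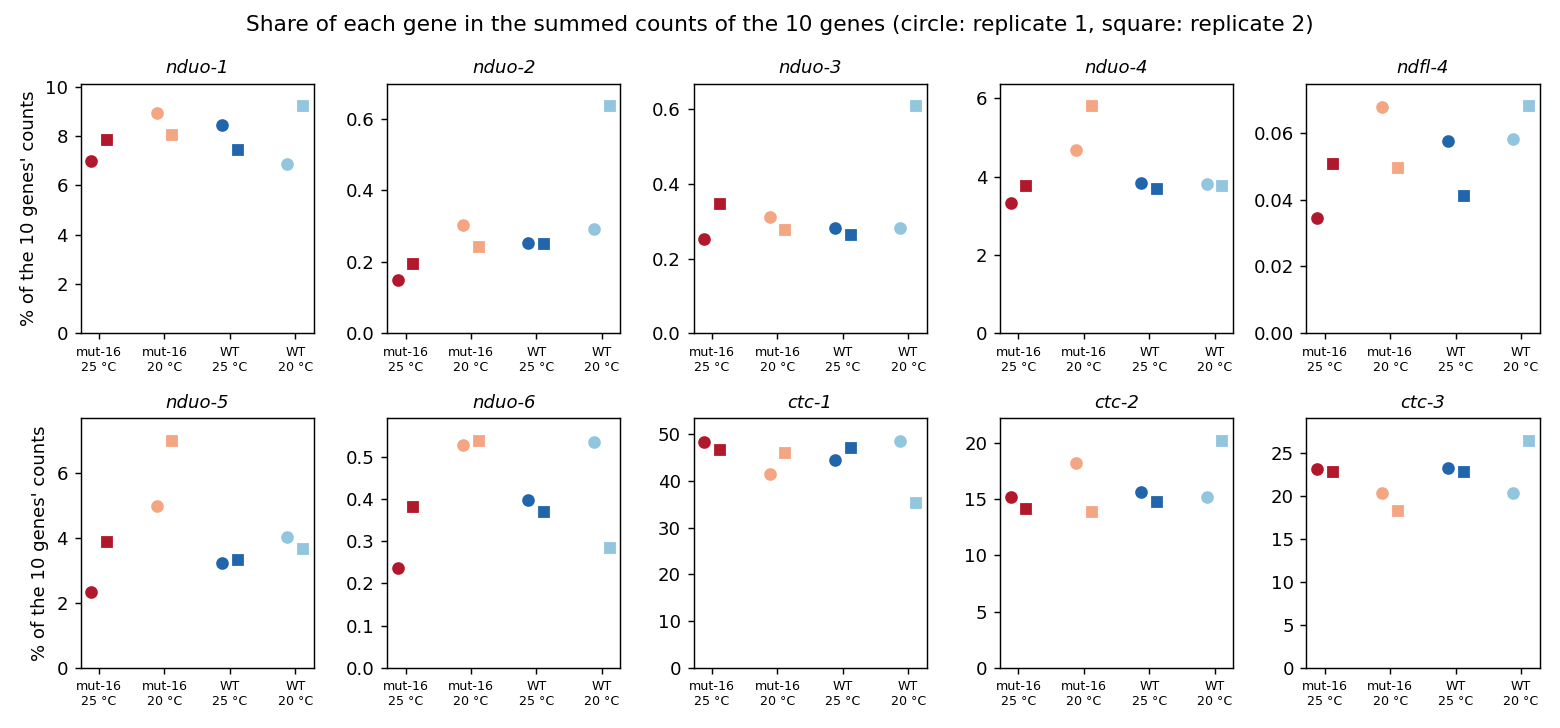
Percent of the summed counts of the 10 genes that each gene took, by library, with groups along the axis and a separate scale for each gene (circles for replicate 1, squares for replicate 2). For *nduo-4* and *nduo-5* the *mut-16* libraries at 20ºC stand above the other 6, and for *nduo-2* and *nduo-3* replicate 2 of wild-type at 20ºC stands alone.

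The other two protein-coding genes of mtDNA gave values for comparison. *ctb-1* had 2604 and 2783 CPM in *mut-16* at 25ºC, 3644 and 2717 CPM in *mut-16* at 20ºC, 2827 and 2620 CPM in wild-type at 25ºC, and 3425 and 2781 CPM in wild-type at 20ºC. *atp-6* had 1445 and 1426 CPM in *mut-16* at 25ºC, 1817 and 1114 CPM in *mut-16* at 20ºC, 1656 and 1571 CPM in wild-type at 25ºC, and 1651 and 1285 CPM in wild-type at 20ºC. Neither gene passed the test in any comparison, and unlike for *nduo-2*, *nduo-3* and *ctc-3*, replicate 2 was the lower of the wild-type libraries at 20ºC.

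The nuclear partners of these genes were followed as lists. The 35 nuclear complex I genes had 8 that rose and 0 that fell with temperature in wild-type, although with scaling by total counts 0 rose and 1 fell. Of all genes tested 11.1% were called higher there, and leaving out 1 library gave between 2 and 11 of the 35. *nduf-5* averaged 129 ± 2.97 CPM in wild-type at 25ºC and 85.6 ± 4.35 CPM in wild-type at 20ºC (SD, n = 2 each), a log2 fold change of 0.60 with an adjusted p of 0.0044 by edgeR's quasi-likelihood test. *ndub-8* rose by 0.57 on the log2 scale. In *mut-16* 0 of the 35 were called with temperature, where 4.47% of all genes were called lower and 7.71% higher. Between genotypes 0 were called at 20ºC, where 5.75% of all genes were lower and 2.68% higher in *mut-16*. At 25ºC *nduf-5* was the only one called, at −0.46 in *mut-16*, where 12.5% of all genes were lower and 7.68% higher. The median log2 fold change of the 35 genes with temperature was 0.06 in *mut-16* and 0.16 in wild-type.

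Of the 7 nuclear complex IV genes, 5 rose and 0 fell with temperature in wild-type, where 11.1% of all genes were called higher and 9.62% lower. With scaling by total counts 0 of the 7 rose. Leaving out 1 library gave between 0 and 6. Their median log2 fold change with temperature was 0.06 in *mut-16* and 0.48 in wild-type. *cox-6B* averaged 820 ± 24.0 CPM in wild-type at 25ºC and 537 ± 16.4 CPM in wild-type at 20ºC (SD, n = 2 each), a log2 fold change of 0.61, and *cox-7C* had 0.57. In *mut-16* 0 of the 7 were called with temperature, where 4.47% of all genes were called lower and 7.71% higher. At 25ºC, where 12.5% of all genes were called lower, *cox-6C* and *cox-4* fell in *mut-16* by 0.43 and 0.39 on the log2 scale. These calls were lost with scaling by total counts and with no filter, which gave 0 of the 7, and leaving out 1 library gave between 0 and 4. The interaction was called for 0 of the 35 and 0 of the 7 by edgeR's test, where 1.5% of all genes were called lower and 1.59% higher. DESeq2 called it lower for 1 of the 35 and 0 of the 7. A difference between the genotypes was thus not shown by edgeR's test for either list.

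Set against its nuclear partners, mitochondrially encoded complex IV was highest in wild-type at 20ºC. The summed CPM of the 3 mitochondrial genes was 2.57 and 2.72 times that of the 7 nuclear genes in *mut-16* at 25ºC, 2.76 and 2.56 times in *mut-16* at 20ºC, 2.29 and 2.39 times in wild-type at 25ºC, and 3.84 and 3.69 times in wild-type at 20ºC. For complex I the ratio of the 7 mitochondrial to the 35 nuclear genes was 0.223 and 0.301 in *mut-16* at 25ºC, 0.394 and 0.386 in *mut-16* at 20ºC, 0.287 and 0.267 in wild-type at 25ºC, and 0.399 and 0.414 in wild-type at 20ºC. The complex I ratio was thus lower in all 4 libraries grown at 25ºC than in all 4 grown at 20ºC. These ratios compare sums within a library and were not tested.

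**Figure D5:**
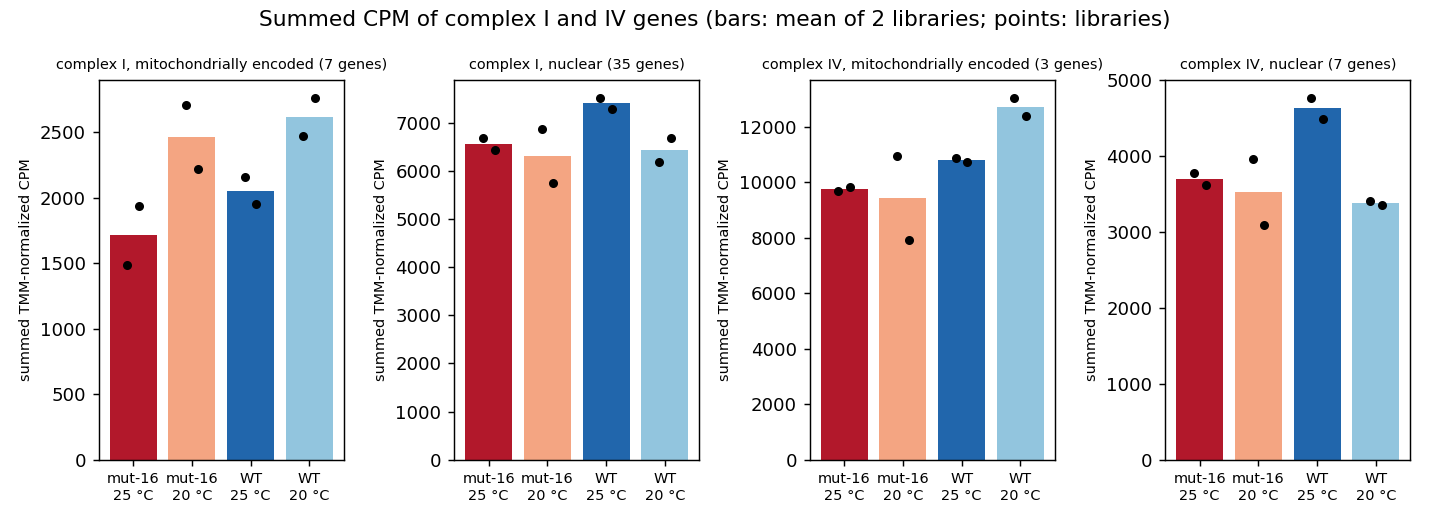
Summed TMM-normalized CPM of the mitochondrially encoded and the nuclear genes of complex I and complex IV; bars are means of 2 libraries, points are libraries, and all axes start at 0. In wild-type the mitochondrial complex IV sum is lower at 25ºC than at 20ºC (10890 and 10720, against 13050 and 12380 CPM), while the nuclear sum is higher at 25ºC (4766 and 4492, against 3403 and 3354 CPM).

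Genes that build, express or guard these complexes were mostly not called. Of 15 complex IV assembly factors, *cox-10* (−0.76) and *cox-15* (−0.45) fell with temperature in *mut-16*, and 4 fell in wild-type, with −1.04 for *coa-7* and −0.92 for *coa-1*. Of all genes tested, 4.47% and 9.62% were called lower in these comparisons. Leaving out 1 library gave 0 to 4 and 1 to 6 of the 15, and scaling by total counts gave 3 and 8. The call on *cox-15* was lost under 7 of 14 alternatives. The medians of the 15 were −0.23 in *mut-16* and −0.26 in wild-type. *coa-7* and *coa-4* rose in *mut-16* over wild-type at 25ºC by 0.88 and 0.63, where 7.68% of all genes were called higher. Leaving out 1 library gave 0 to 4 there. Of 7 genes for mtDNA maintenance and expression, *mma-1*, related to the mammalian mRNA-stability factor LRPPRC, fell with temperature in *mut-16* (−0.52) and rose in *mut-16* at 20ºC (0.50). Its call at 20ºC was lost under 8 of 14 alternatives. In the same list *hmg-5*, the worm relative of the mtDNA packaging factor TFAM, fell with temperature in wild-type (−0.93) and rose in *mut-16* over wild-type at 25ºC (0.66). *mtss-1*, the mitochondrial single-stranded DNA binding protein, fell with temperature in wild-type by 0.65. Of 69 mitochondrial ribosomal protein genes, 13 fell with temperature in wild-type, *mrpl-23* by 1.37 and *mrpl-16* by 0.95, and 12 rose in *mut-16* over wild-type at 25ºC, among them *mrpl-16* by 0.89 and *mrpl-11* by 0.85. The medians of that list were −0.18 and 0.165 in these comparisons, beside 9.62% of all genes called lower in the first and 7.68% called higher in the second. Scaling by total counts gave 29 and 23 genes in place of 13 and 12, and leaving out 1 library gave 4 to 20 and 3 to 20. *mrpl-22* was called higher in *mut-16* at 20ºC, at 0.55, a call lost under 9 of 14 alternatives.

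Of 9 mitochondrial stress genes, 2 rose and 0 fell in *mut-16* at 20ºC, with a median of 0.41. Of all genes tested 2.68% were called higher there, and leaving out 1 library gave 1 to 3 of the 9. *hsp-6*, the mitochondrial HSP70, averaged 355 ± 52.3 CPM in *mut-16* at 20ºC and 184 ± 14.5 CPM in wild-type at 20ºC (SD, n = 2 each), a log2 fold change of 0.95 with an adjusted p of 9.3e-04 by edgeR's quasi-likelihood test. The chaperonin gene *hsp-60* rose by 0.78 in the same comparison and by 0.52 at 25ºC, where 4 of the 9 genes of this list rose and *dnj-10* rose by 0.56. At 25ºC 7.68% of all genes were called higher, and leaving out 1 library gave 0 to 4 of the 9. With temperature *hsp-6* and *hsp-60* fell in *mut-16*, by 0.69 and 0.68, to averages of 220 ± 14.6 and 277 ± 22.5 CPM at 25ºC. Of all genes 4.47% were called lower there. In wild-type 1 of the 9 rose with temperature, the transcription factor gene *dve-1* at 0.61. That count is close to the share of all genes called higher in wild-type, 11.1%. With scaling by total counts 0 of the 9 rose and 5 fell.

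Markers of germ cells and stage moved beside these results. Of 30 tested sperm genes, 20 fell with temperature in *mut-16*, 11 rose and 3 fell with temperature in wild-type, 23 fell in *mut-16* at 20ºC and 30 fell in *mut-16* at 25ºC. Among all genes, 4.47%, 9.62%, 5.75% and 12.5% were called lower in these comparisons, in the same order. With temperature 7.71% were called higher in *mut-16* and 11.1% in wild-type. Of 11 oocyte and eggshell genes, 10 rose with temperature in *mut-16* and 7 fell in *mut-16* at 20ºC, and their sum was 309 to 342 CPM in *mut-16* at 25ºC, 168 to 177 CPM in *mut-16* at 20ºC, 250 to 270 CPM in wild-type at 25ºC and 208 to 341 CPM in wild-type at 20ºC. Vitellogenin genes with *col-19*, markers of the intestine and of adult stage, summed to 302 to 399 CPM in *mut-16* at 25ºC, 290 to 404 CPM in *mut-16* at 20ºC, 470 to 803 CPM in wild-type at 25ºC and 608 to 733 CPM in wild-type at 20ºC. These 7 genes did not move together. With temperature *col-19* rose by 2.72 on the log2 scale in *mut-16* and by 1.955 in wild-type. In *mut-16* 2 of the 7 rose and 0 fell with temperature. In wild-type 1 rose and 3 fell, among them *vit-4* (−1.465) and *vit-3* (−1.204). Between genotypes 5 of the 7 fell in *mut-16* at 20ºC and 2 at 25ºC, and 0 rose. The part of cell makeup and stage in the values of the 10 genes was not tested.

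Across the 8 libraries the mean log2 CPM of the 10 genes was lowest in replicate 1 of *mut-16* at 25ºC, at 7.63, and highest in replicate 2 of wild-type at 20ºC, at 8.66. Among 7928 nuclear genes whose mean log2 CPM reached 3, those whose pattern was most like it were *Y48G10A.1*, *pigc-1*, *rsp-1*, *cah-3* and *nlp-36*, with Pearson r between 0.91 and 0.95 over the 8 libraries. These are the highest of many correlations over points that share library scaling, and they are given as a description.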

How the data were processed

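According to the labels and the methods of the study, the authors trimmed single-end reads of directional libraries with cutadapt and quantified them with Salmon on WS258 transcripts. The authors then summed these into the deposited expected counts per gene, with no scaling; whether strand was used in counting is not given in the sources used here. Of 80 values of the 10 genes 79 were whole within 1e-06. Totals of 9914054 to 13227929 per library and 2 replicates per group limit the precision.

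Expected counts were rounded and analysed in R 4.3.3 with edgeR 4.0.16 (filterByExpr with a minimum count of 10 and total of 15, TMM factors of 0.858 to 1.10, quasi-likelihood fit of 4 groups and 8 libraries with no block, 13972 genes tested). Benjamini-Hochberg adjustment was made per comparison. The standard error (SE) of a log2 fold change was derived from the test, as its absolute value divided by the square root of the F statistic. DESeq2 1.42.0 was an alternative, as were RLE, total count and nuclear non-rRNA scaling, no filter beyond 1 count, a replicate block and each library left out. The call was an adjusted p of 0.05 or less. A shared estimate of the spread served all 4 groups, although noise between replicates was unequal. The chi-square per degree of freedom between replicate counts was 3.67 in *mut-16* at 25ºC and 18.7 in *mut-16* at 20ºC. In wild-type it was 10.4 at 25ºC and 18.9 at 20ºC. Steps were tested on simulated data. Coordinates came from the WBcel235 annotation of Ensembl release 115, in which 46260 of 46449 names (99.6%) were found. All value columns were used (columns not used: 0). Figures were drawn with Python 3.11.15 and matplotlib 3.10.9.

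The 10 genes and all lists were chosen with earlier results of these data known. Genes named are the 10, *ctb-1*, *atp-6*, the mitochondrial rRNA genes, *mut-16*, at most 2 genes called in each direction per list and comparison by smallest adjusted p, and the 5 genes most correlated with the mean of the 10. Lists were defined by gene class or name. Comparisons with wild-type at 20ºC, or with any other group used more than once, share its libraries.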

Additional observations from a re-analysis of the deposited data

How the results depend on the processing

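Calls on the 10 genes were few and changed with the processing. For lower genes with temperature in *mut-16*, with 2 called, no filter beyond 1 count gave 4 and leaving out 1 library gave 0 to 4. With temperature in wild-type, with 2 called, DESeq2 gave 0, total count scaling 8, no filter 4 and leaving out 1 library 0 to 3. For *mut-16* at 20ºC, with 2 called, DESeq2 gave 1, RLE scaling 1, no filter 4, the replicate block 0 and leaving out 1 library 0 to 3. For *mut-16* at 25ºC, with 0 called, no filter gave 1 and leaving out 1 library 0 to 1. For a higher interaction, with 0 called, no filter gave 1 and leaving out 1 library 0 to 1. The causes were not tested.

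The median log2 fold change with temperature in wild-type was −0.66 with total count scaling, which moved the median of all genes to −0.25. With that scaling 888 genes were called higher and 2787 lower there, against 1556 and 1344 with TMM, 1917 and 1291 in *mut-16* at 25ºC, against 1073 and 1744, and 517 and 139 for the interaction, against 222 and 209. Without the filter 989 genes were lower with temperature in *mut-16*, against 625, 722 were higher in *mut-16* at 20ºC, against 375, and the interaction had 668 and 543. With 1 library left out, medians of the 10 genes ran from −0.62 to 0.019 with temperature in *mut-16*, −0.47 to −0.32 in wild-type, −0.77 to −0.04 for *mut-16* at 20ºC, −0.38 to −0.11 for *mut-16* at 25ºC and −0.20 to 0.47 for the interaction.

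The log2 fold changes that changed sign under a setting were uncalled with and without it. With total count scaling they were −0.014 for *nduo-6* in *mut-16* at 20ºC, and 0.16 for *nduo-3*, 0.063 for *ctc-1* and 0.0092 for *ctc-3* in *mut-16* at 25ºC. Without the filter *nduo-3* was 0.025 in *mut-16* at 25ºC, and the interaction of *nduo-1* was −2.2e-04, with −0.025 by DESeq2 and by RLE. With 1 library left out, ranges with temperature in *mut-16* were −0.53 to 0.066 for *nduo-1*, −0.31 to 0.29 for *nduo-3*, −0.068 to 0.22 for *ctc-1*, −0.57 to 0.26 for *ctc-2* and −0.084 to 0.51 for *ctc-3*. In wild-type they were −0.76 to 0.22 for *nduo-6* and −0.36 to 0.17 for *ctc-1*. For *mut-16* at 20ºC they were −0.36 to 0.62 for *nduo-6*, −0.60 to 0.040 for *nduo-1* and −0.51 to 0.022 for *ctc-1*, and at 25ºC −0.30 to 0.24 for *nduo-3* and −0.69 to 0.14 for *nduo-5*. Interaction ranges were −0.32 to 0.58 for *ndfl-4*, −0.28 to 0.34 for *nduo-1*, −0.26 to 0.82 for *nduo-2*, −0.10 to 0.43 for *ctc-1* and −0.12 to 0.73 for *ctc-2*.

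Replicate numbers are shared by the labels, but same-numbered libraries deviated from their group means with correlations of −0.17 to 0.07, so they were not taken as pairs. With the replicate block *nduo-2* and *ctc-3* were not called at 20ºC, at −1.06 (adjusted p of 0.069) and −0.64 (adjusted p of 0.055). Of the 30 calls on named genes of the lists, 7 held under all 14 alternatives and 23 were lost under at least 1, with none reversed. Depth limits *ndfl-4*, with 47 to 118 counts a library.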
